A study of Mus musculus with 18 samples.

Results

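Transcripts of 9 genes for acetylcholine receptor subunits were followed in spinal cord dorsal horn (DHSC) on the injected side of mice that had received formalin. They are the muscarinic receptor genes *Chrm1*, *Chrm2*, *Chrm3* and *Chrm4* and the nicotinic subunit genes *Chrna3*, *Chrna4*, *Chrna5*, *Chrna7* and *Chrnb2*. The genes were chosen by symbol, with no measured value in the rule, out of the 55573 Ensembl genes in the count table, and all 9 passed the filter on low counts. The 12 other receptor subunit genes of the mouse were read beside them.

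The 18 RNA samples were taken from C57BL/6J adult mice 2 h after a 2% formalin solution had been injected into the plantar surface of a hindpaw. There were 6 samples from males, 6 from females with a short quiet interphase of the pain response that were in proestrus (F1/proestrus), and 6 from females with a long interphase that were in metestrus (F2/metestrus). Behavior and cycle stage vary together in these females and cannot be told apart. All 18 samples came from mice that received formalin and none from a naive mouse, so no value here is a response to formalin. The tissue was the dissected dorsal horn of lumbar segments, a mixture of neurons, glia, vessels and attached tissue.

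Acetylcholine acts on receptors of different kinds. Muscarinic receptors are single proteins that couple to G proteins: M1 and M3 (*Chrm1*, *Chrm3*) act through Gq and phospholipase C, and M2 and M4 (*Chrm2*, *Chrm4*) act through Gi/o, which lowers cyclic AMP, opens GIRK potassium channels and closes calcium channels. Nicotinic receptors are ion channels of several subunits: alpha4 (*Chrna4*) with beta2 (*Chrnb2*) is the common heteromeric receptor of the brain, alpha7 (*Chrna7*) forms a calcium-permeable channel by itself, alpha3 (*Chrna3*) is typical of autonomic and sensory ganglia, and alpha5 (*Chrna5*) is an accessory subunit that needs partners. In the dorsal horn, acetylcholine comes from local interneurons, and agonists of both receptor kinds given at the spinal cord are known to reduce pain behavior in rodents.

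Between 73590509 and 125724156 reads per sample were counted on genes, and 3 counts correspond to 0.0240 to 0.0407 CPM, the count per 1000000 counts of the TMM-normalized library. This floor covers counting error only. All 12 markers of dorsal horn neurons on the list used were present, with 636 to 787 CPM in sum. By their library numbers the samples form 2 series: the first holds replicates 1 to 3 of every group and the second replicates 4 to 6. Values are given for both where they differ. A single library stood apart. F1/proestrus replicate 5 had 483 CPM summed over 8 markers of sensory ganglion neurons, where the other 17 samples had 14.1 to 27.6 CPM, and results that rest on it are given with and without it.

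No receptor gene differed between the sexes or between the female groups at an FDR of 5%. Between males and all 12 females, 0 of 9 genes passed, against 49 of 24862 genes tested (0.197%; 0.149% higher and 0.0483% lower in males). The median log2 fold change of the 9 genes was -0.08, against a median of -0.0013 over all genes, with 1 positive and 8 negative values and none at an unadjusted p under 0.05 (9.72% of all genes). DESeq2 on the same counts also called 0 of the 9. Between F2/metestrus and F1/proestrus, 0 of 9 genes passed, against 0 of 24042 genes tested (0%), with 5 positive and 4 negative values. None of the 9 was at an unadjusted p under 0.05, as 2.48% of all genes were, and DESeq2 again called 0. Between replicates 4 to 6 and replicates 1 to 3, with the group in the model, 3 of 9 genes passed (*Chrna4*, *Chrnb2* and *Chrm2*), all lower in replicates 4 to 6. There, 6774 of 25180 genes passed (26.9%), 3207 of them lower (12.7%) and 3567 higher (14.2%), so that the share of the 9 genes is near that of all genes. At an unadjusted p under 0.05 there were 4 of 9, against 37.6% of all genes. The sexes, the female groups and the series overlapped for 9 of 9 genes, against a full separation in 0.125%, 0.108% and 4.03% of the genes tested. In bulk tissue, fewer cells of a type and less RNA per cell cannot be told apart.

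**Figure D1:**
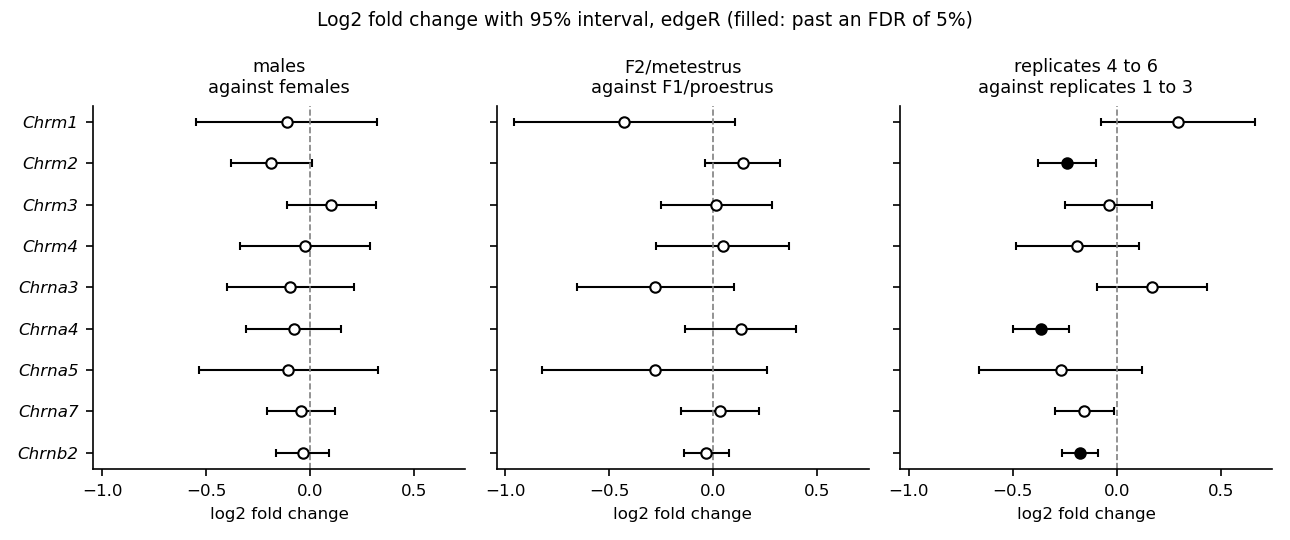
Log2 fold changes of the 9 receptor genes (rows) in males against females, F2/metestrus against F1/proestrus, and replicates 4 to 6 against replicates 1 to 3, with 95% intervals from edgeR on the log2 axis and filled points past an FDR of 5%. The intervals of all 9 genes include 0 in the first and second panels, and *Chrm2*, *Chrna4* and *Chrnb2* are filled in the third, at -0.24, -0.36 and -0.18.

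The level of each gene was set against the others per length, as CPM per kb of its exons. *Chrna4* had 11.2 ± 1.90 CPM per kb (SD, n = 18), *Chrm2* 11.0 ± 1.62 and *Chrnb2* 10.8 ± 0.902. These 3 levels did not differ beyond their spread: *Chrna4* was above *Chrm2* in 9 of 18 samples, and *Chrm2* above *Chrnb2* in 11 of 18. *Chrna7* followed with 4.97 ± 0.546 CPM per kb and was below *Chrnb2* in 18 of 18 samples, with *Chrnb2* 2.17-fold higher in the geometric mean. *Chrna3* had 1.30 ± 0.320 CPM per kb, below *Chrna7* in 18 of 18 samples. *Chrm3*, with 1.18 ± 0.179 CPM per kb, was below *Chrna3* in 11 of 18 samples and was not separated from it.

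The last 3 genes had the lowest levels per length. *Chrm4* had 0.606 ± 0.112 CPM per kb and was below *Chrm3* in 18 of 18 samples. *Chrm1* had 0.230 ± 0.0695 CPM per kb, below *Chrm4* in 18 of 18 samples. *Chrna5* had 0.143 ± 0.0395 CPM per kb and was below *Chrm1* in 16 of 18 samples. Among 16508 protein-coding genes, *Chrna4*, *Chrm2* and *Chrnb2* lay at the 73.0th, 72.7th and 72.2nd percentile of the level per kb, *Chrna7* at the 53.8th, and *Chrm1* and *Chrna5* at the 11.6th and 8.12th. With the longest transcript in place of all exons, 4 of the 9 genes kept their place in the order, with *Chrnb2* at 14.1 and *Chrna7* at 7.95 CPM per kb. *Chrm4* is annotated as a single coding exon of 1440 bp with no UTR, so its level per kb is not on the same footing as that of genes whose UTRs are annotated.

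**Figure D2:**
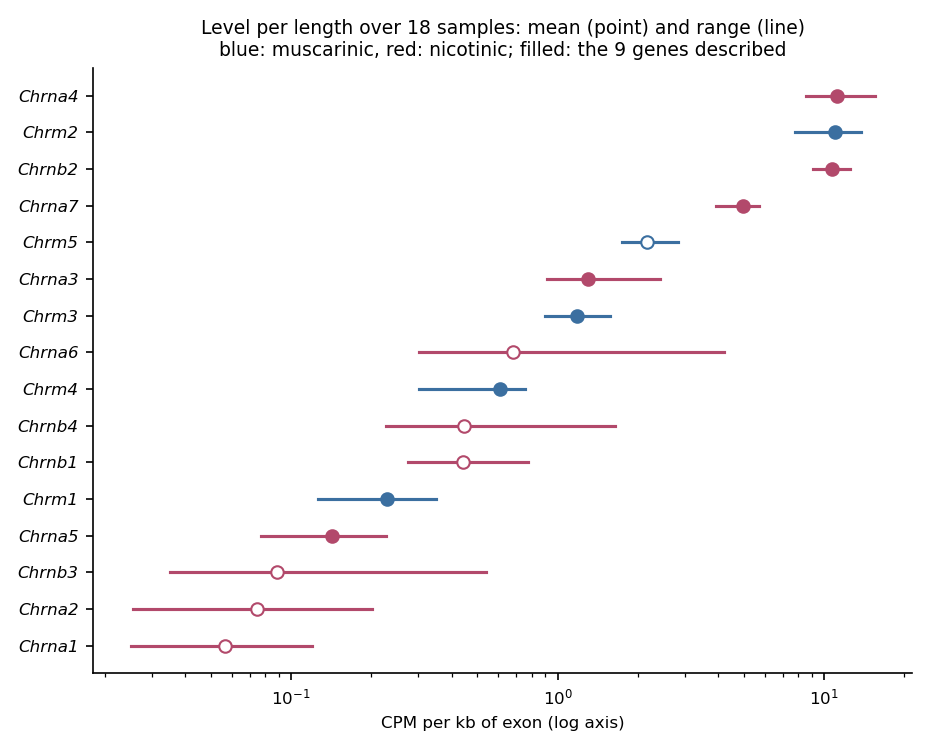
Mean level (point) and range over 18 samples (line) of the acetylcholine receptor genes with a count in every sample, in CPM per kb of exon on a log axis, with muscarinic genes in blue, nicotinic genes in red and the 9 genes described filled. *Chrna4*, *Chrm2* and *Chrnb2* lie together at the top near 11 CPM per kb, and the line of *Chrna6* reaches 4.23 CPM per kb in a single library.

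The M2 gene *Chrm2* had the highest level per kb of the muscarinic genes. In these units it held 84.3% ± 2.79 (SD, n = 18) of the sum of the 4 listed muscarinic genes, with 77.0% in the lowest and 88.0% in the highest sample, whereas *Chrm3* held 9.21% ± 1.98, *Chrm4* 4.70% ± 0.907 and *Chrm1* 1.81% ± 0.627. With *Chrm5*, the remaining muscarinic gene, added to the sum, *Chrm2* held 72.2% ± 4.01 and *Chrm5* was second with 14.4% ± 2.50, before *Chrm3* with 7.86% ± 1.53. *Chrm5* is annotated as a single exon of 1599 bp, and its level per kb has the same limit as that of *Chrm4*. *Chrm2* lies on the plus strand of chromosome 6 (GRCm38, 36388084 to 36528414), and 142 of its 6053 exon bases overlap an antisense lincRNA, which counts without strand cannot separate. Its expression in the 6 F1/proestrus samples had a lowest value of 55.9, a median of 66.3 and a highest value of 81.0 CPM. In F2/metestrus the same values were 66.1, 72.1 and 83.3 CPM. In males they were 47.2, 58.7 and 76.5 CPM. The ranges overlapped, and the 2 lowest of all samples were male replicates 5 and 6.

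Of the 9 genes *Chrm2* had the smallest unadjusted p between the sexes. The log2 fold change of males against females was -0.19 (SE 0.0944, 95% interval -0.38 to 0.01, unadjusted p 0.0618, adjusted p 0.527 by the quasi-likelihood test of edgeR). It was -0.11 in replicates 1 to 3 alone and -0.29 in replicates 4 to 6 alone, with adjusted p of 0.796 and 0.340 in edgeR, and the difference of the sex effect between the series was -0.19 (SE 0.150, adjusted p 0.970). In F2/metestrus against F1/proestrus the log2 fold change was 0.14 (SE 0.0845, 95% interval -0.04 to 0.32). *Chrm2* fell by 0.24 on the log2 scale (SE 0.0667, adjusted p 0.0109 in edgeR) in replicates 4 to 6 against replicates 1 to 3. The means of the second and first series were 61.2 ± 8.74 and 71.9 ± 7.94 CPM (SD, n = 9), and the series overlapped. The change was -0.18 in the females alone (adjusted p 0.0887) and -0.37 in the males alone (adjusted p 0.115), and neither passed.

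*Chrm4*, the gene for M4, the other Gi/o-coupled receptor, lies on the plus strand of chromosome 2 (GRCm38, 91927249 to 91928688) and had 32 to 122 counts per sample. In F1/proestrus its lowest, median and highest values were 0.659, 0.867 and 1.09 CPM. In F2/metestrus they were 0.798, 0.896 and 0.997 CPM. In males they were 0.434, 0.918 and 1.09 CPM. The lowest value was that of male replicate 4, the library with the fewest counts, and the highest was that of male replicate 3 (1.09 CPM, as in F1/proestrus replicate 2 to 3 digits). The other 4 males lay within the range of the females. The log2 fold change was -0.03 (SE 0.150, 95% interval -0.34 to 0.29) between the sexes and 0.04 (SE 0.150, 95% interval -0.28 to 0.36) between the female groups.

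*Chrm3*, the gene for the Gq-coupled M3, lies on the minus strand of chromosome 13 (GRCm38, 9875486 to 10360847) and had a higher level per kb than *Chrm1*. Its lowest, median and highest values were 5.61, 6.78 and 9.83 CPM in F1/proestrus. They were 6.07, 7.56 and 7.82 CPM in F2/metestrus. They were 6.24, 7.63 and 9.64 CPM in males. *Chrm3* was the only one of the 9 genes with a positive log2 fold change of males against females, at 0.10 (SE 0.103, 95% interval -0.11 to 0.32, adjusted p 0.754 in edgeR), and the groups overlapped fully. Between the female groups its log2 fold change was 0.01 (SE 0.125), and between the series it was -0.04 (SE 0.0997).

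*Chrm1* (M1, plus strand of chromosome 19, GRCm38, 8663789 to 8683587), the main muscarinic receptor of the forebrain cortex, was low in this tissue, with 74 to 259 counts per sample. Its lowest, median and highest values were 0.967, 1.80 and 2.27 CPM in F1/proestrus. They were 0.817, 1.26 and 1.91 CPM in F2/metestrus. They were 1.12, 1.37 and 1.83 CPM in males. Values spread about as widely within the female groups as between them, with a coefficient of variation of 30.3% and 35.4%. In F2/metestrus against F1/proestrus the log2 fold change was -0.43 (SE 0.249, 95% interval -0.96 to 0.10, unadjusted p 0.106, adjusted p 1 in edgeR). It was -0.48 in replicates 1 to 3 alone and -0.40 in replicates 4 to 6 alone, also with adjusted p of 1 in edgeR. A difference of this size was within the error of these 12 samples. *Chrm1* shares 329 of its 6487 exon bases with *Gm22820* on the opposite strand.

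*Chrna4* and *Chrnb2*, the subunits of the alpha4beta2 receptor, had nearly equal levels per kb of all exons. This depends on the length used. The longest transcript has 4565 bases in *Chrna4* (5022 in all exons) and 6399 in *Chrnb2* (8380 in all exons). The ratio of *Chrnb2* to *Chrna4* per kb was 0.978 ± 0.114 (SD, n = 18), from 0.760 to 1.21. They held 39.3% ± 3.06 (*Chrna4*) and 38.1% ± 1.92 (*Chrnb2*) of the sum of the 5 listed nicotinic genes per kb, with *Chrna7* at 17.6% ± 1.39, *Chrna3* at 4.65% ± 1.27 and *Chrna5* at 0.501% ± 0.119. *Chrnb2* (minus strand of chromosome 3, GRCm38, 89746195 to 89764632) shares 1365 of its 8380 exon bases with *Adar* on the opposite strand. The library kit named in the sample labels does not mark strand, so part of its counts could be from *Adar*. Reads over both genes could also have been left uncounted, as their handling is not given. The level of *Chrnb2* per kb could thus be too high or too low.

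*Chrna4* (minus strand of chromosome 2, GRCm38, 181018380 to 181043546) had lowest, median and highest values of 43.1, 52.2 and 66.8 CPM in F1/proestrus. They were 46.1, 58.4 and 78.0 CPM in F2/metestrus. They were 46.3, 50.2 and 67.0 CPM in males. The groups overlapped over most of their range, and the log2 fold change was -0.08 (SE 0.111, 95% interval -0.31 to 0.15) between the sexes and 0.13 (SE 0.125, 95% interval -0.13 to 0.40) between the female groups. The split within each group followed the library series. *Chrna4* had 63.3 ± 8.03 CPM in replicates 1 to 3 and 49.1 ± 3.79 CPM in replicates 4 to 6 (SD, n = 9), and fell by 0.36 on the log2 scale (SE 0.0644, adjusted p 0.000311 in edgeR). In F2/metestrus and in males all of replicates 4 to 6 were below all of replicates 1 to 3. In F1/proestrus replicate 4 (52.4 CPM) was above replicate 3 (52.0 CPM). With the females alone the call held, and with the males alone the change was -0.37 with an adjusted p of 0.0747 in edgeR.

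*Chrnb2* had the narrowest spread of the 9 genes in the females, with a coefficient of variation of 3.45% in F1/proestrus and 6.43% in F2/metestrus. Its lowest, median and highest values were 86.7, 92.2 and 95.4 CPM in F1/proestrus. They were 82.5, 88.6 and 98.9 CPM in F2/metestrus. They were 76.4, 88.0 and 104.9 CPM in males. The males lay at both ends of the range, with 96.3, 104.9 and 96.6 CPM in replicates 1 to 3 and 79.8, 78.3 and 76.4 CPM in replicates 4 to 6. Between the sexes the log2 fold change was -0.04 (SE 0.0611, 95% interval -0.16 to 0.09), and between the female groups it was -0.03 (SE 0.0510, 95% interval -0.14 to 0.07).

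*Chrnb2* fell by 0.18 on the log2 scale in replicates 4 to 6 (SE 0.0409, adjusted p 0.00312 in edgeR). The change was -0.35 in the males alone, which passed, and -0.10 in the females alone, which did not (adjusted p 0.129). The sex effect was 0.07 in replicates 1 to 3 and -0.17 in replicates 4 to 6, and the test of their difference gave -0.24 (SE 0.0659, unadjusted p 0.00165, adjusted p 0.970 in edgeR). Of all 26075 genes in that test, 4.75% had an unadjusted p under 0.05 and 0 passed, so this difference is not called. The same test for the female groups gave -0.09 (SE 0.0840) for *Chrnb2*, and 0 of the 9 receptor genes were at an unadjusted p under 0.05, against 3.26% of 25332 genes, of which 0.00790% passed.

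*Chrna7* (minus strand of chromosome 7, GRCm38, 63098692 to 63212569), which forms the homomeric alpha7 receptor, had lowest, median and highest values of 19.3, 22.4 and 25.6 CPM in F1/proestrus. They were 19.2, 23.5 and 25.5 CPM in F2/metestrus. They were 17.8, 22.3 and 25.8 CPM in males. The groups overlapped almost fully, with log2 fold changes of -0.04 (SE 0.0790, 95% interval -0.21 to 0.12) between the sexes and 0.03 (SE 0.0885, 95% interval -0.16 to 0.22) between the female groups. In replicates 4 to 6 against replicates 1 to 3 the change was -0.16 (SE 0.0675, unadjusted p 0.0314, adjusted p 0.0942 in edgeR). It passed when F1/proestrus replicate 3 or replicate 5 was left out, with adjusted p of 0.0247 and 0.0184 in edgeR.

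**Figure D3:**
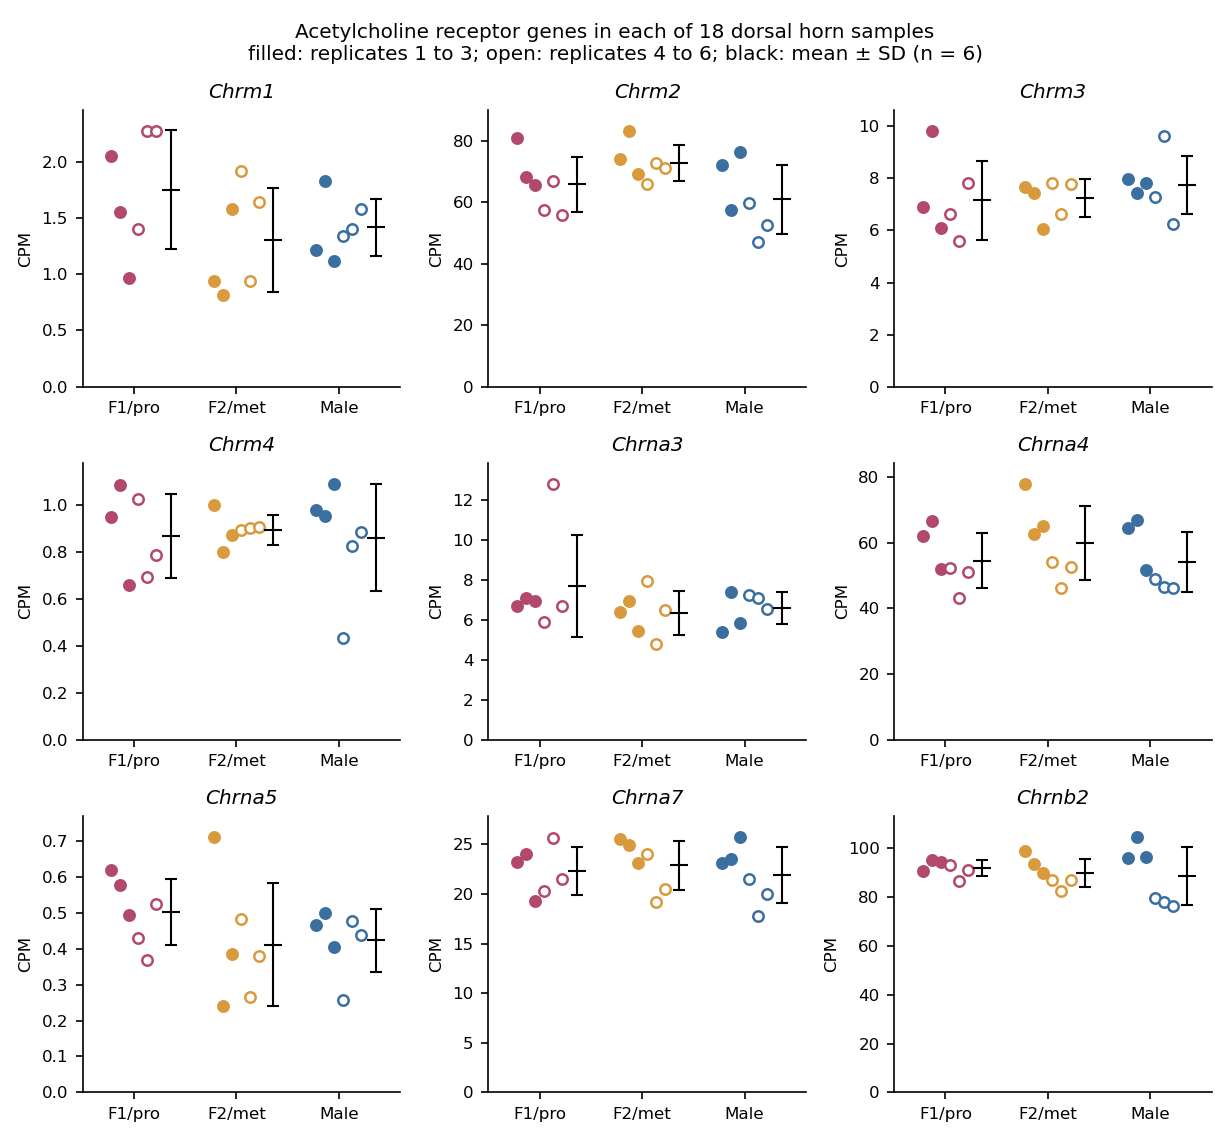
Expression of the 9 receptor genes in CPM (vertical axes from 0) in each of the 6 F1/proestrus, 6 F2/metestrus and 6 male samples, with replicates 1 to 3 filled, replicates 4 to 6 open, and mean ± SD in black. The groups overlap in every panel, *Chrna4* and male *Chrnb2* split by library series, and *Chrna3* is highest in F1/proestrus replicate 5 at 12.8 CPM.

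*Chrna3* and *Chrna5* belong to a cluster of nicotinic subunit genes on chromosome 9 that also holds *Chrnb4*, the beta subunit that commonly joins alpha3 in ganglia. On GRCm38, *Chrna5* runs from 54980880 to 55007779 on the plus strand, *Chrna3* from 55010111 to 55026562 on the minus strand and *Chrnb4* from 55028154 to 55048779 on the minus strand. Their promoters were taken from RefSeq (GRCm38.p6) as 250 bases before to 50 after the start. Each reads 5′ to 3′ on the strand of its gene. In F1/proestrus replicate 5, *Chrna3* (12.8 CPM) and *Chrnb4* (6.11 CPM) had the highest value of their group and *Chrna5* (0.368 CPM) the lowest. A part of the promoter sequence in these values was not tested. Capitals mark the GC box GGGCGG on either strand, which 35.7% of the 32841 mouse promoters of this length hold. RefSeq gives 2 starts for *Chrna5*, and a promoter was matched for 8 of the 9 receptor genes.
*Chrna3*, chr9:55026513-55026812, minus strand: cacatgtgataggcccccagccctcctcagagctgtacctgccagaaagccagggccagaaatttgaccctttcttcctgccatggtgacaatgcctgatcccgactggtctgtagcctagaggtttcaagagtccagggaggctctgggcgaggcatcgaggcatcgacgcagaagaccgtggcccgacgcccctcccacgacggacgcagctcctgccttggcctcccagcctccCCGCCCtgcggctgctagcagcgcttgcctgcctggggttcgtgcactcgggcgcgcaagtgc
*Chrnb4*, chr9:55048495-55048794, minus strand: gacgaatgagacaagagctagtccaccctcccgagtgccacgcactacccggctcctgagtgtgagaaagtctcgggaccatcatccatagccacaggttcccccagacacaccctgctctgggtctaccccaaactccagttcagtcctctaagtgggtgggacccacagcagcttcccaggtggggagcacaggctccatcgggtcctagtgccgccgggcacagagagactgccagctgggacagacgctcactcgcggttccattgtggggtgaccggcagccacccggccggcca
*Chrna5*, upstream start, chr9:54980630-54980929, plus strand: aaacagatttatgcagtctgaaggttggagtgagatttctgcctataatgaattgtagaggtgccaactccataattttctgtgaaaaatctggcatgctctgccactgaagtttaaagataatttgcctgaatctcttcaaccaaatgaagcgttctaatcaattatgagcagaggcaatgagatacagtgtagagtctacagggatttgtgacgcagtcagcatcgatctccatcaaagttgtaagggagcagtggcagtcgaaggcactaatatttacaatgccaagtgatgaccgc
*Chrna5*, downstream start, chr9:54981238-54981537, plus strand: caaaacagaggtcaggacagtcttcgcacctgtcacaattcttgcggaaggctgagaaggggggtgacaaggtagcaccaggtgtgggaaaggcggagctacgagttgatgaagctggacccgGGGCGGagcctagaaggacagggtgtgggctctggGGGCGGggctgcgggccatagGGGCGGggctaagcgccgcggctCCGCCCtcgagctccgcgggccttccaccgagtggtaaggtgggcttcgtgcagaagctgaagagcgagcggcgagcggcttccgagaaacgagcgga

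The window of *Chrna3* holds 1 GC box and 64.3% G and C, that of *Chrnb4* 0 GC boxes and 63% G and C. The upstream window of *Chrna5* holds 0 GC boxes and 41.3% G and C, and the downstream window holds 4 GC boxes and 65% G and C. A match describes the letters of a window and is not a binding site.

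*Chrna3* was expressed at 6.65 ± 0.473 CPM in F1/proestrus without replicate 5 (SD, n = 5) and at 12.8 CPM in replicate 5. The mean of all 6 F1/proestrus samples was 7.68 ± 2.55 CPM. Its lowest, median and highest values were 4.80, 6.44 and 7.95 CPM in F2/metestrus. They were 5.39, 6.80 and 7.36 CPM in males. All samples but F1/proestrus replicate 5 thus lay between 4.80 and 7.95 CPM, without order between the groups.

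The log2 fold changes of *Chrna3* depended on that library. For F2/metestrus against F1/proestrus it was -0.28 (SE 0.176, 95% interval -0.66 to 0.10) with it and -0.07 (SE 0.114) without it. For males against females it was -0.09 (SE 0.146) with it and 0.02 (SE 0.0940) without it. For replicates 4 to 6 against replicates 1 to 3 it was 0.17 (SE 0.127) with it and 0.04 (SE 0.0918) without it. None of these passed.

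Other subunit genes that sensory ganglia express were high in the same library. *Chrnb4* had 6.11 CPM there and 1.15 to 1.55 CPM in the other 5 F1/proestrus samples. *Chrna6*, which lies next to *Chrnb3* on chromosome 8, had 12.3 CPM there and 1.14 to 2.07 CPM in the others. *Chrnb3* had 3.42 CPM there and 0.286 to 0.536 CPM in the others. *Chrna10*, with a median of 5 counts over the 18 samples, had 44 counts (0.385 CPM) there and 0 to 0.0728 CPM in the others. *Chrna5*, the remaining gene of the chromosome 9 cluster, was not high in that library, with 0.368 CPM, the lowest value of its group.

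The markers of sensory ganglion neurons separate this library from the rest. *Scn10a*, which encodes the nociceptor sodium channel NaV1.8, had 125 CPM in F1/proestrus replicate 5 and at most 0.153 CPM in the other 17 samples, 5 of which were at 0. *Mrgprd* had 32.9 CPM there, with 10 of the other 17 at 0 and the highest of them at 0.0445 CPM. All 8 markers of the list were highest in this library. For *Chrna6* the log2 change between the female groups was -0.16 (SE 0.189) without it, against -1.30 (SE 0.539) with it. For *Chrnb4* it was 0.03 (SE 0.158) without it and -0.63 (SE 0.372) with it. For *Chrnb3* it was 0.05 (SE 0.296) without it and -1.15 (SE 0.588) with it.

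**Figure D4:**
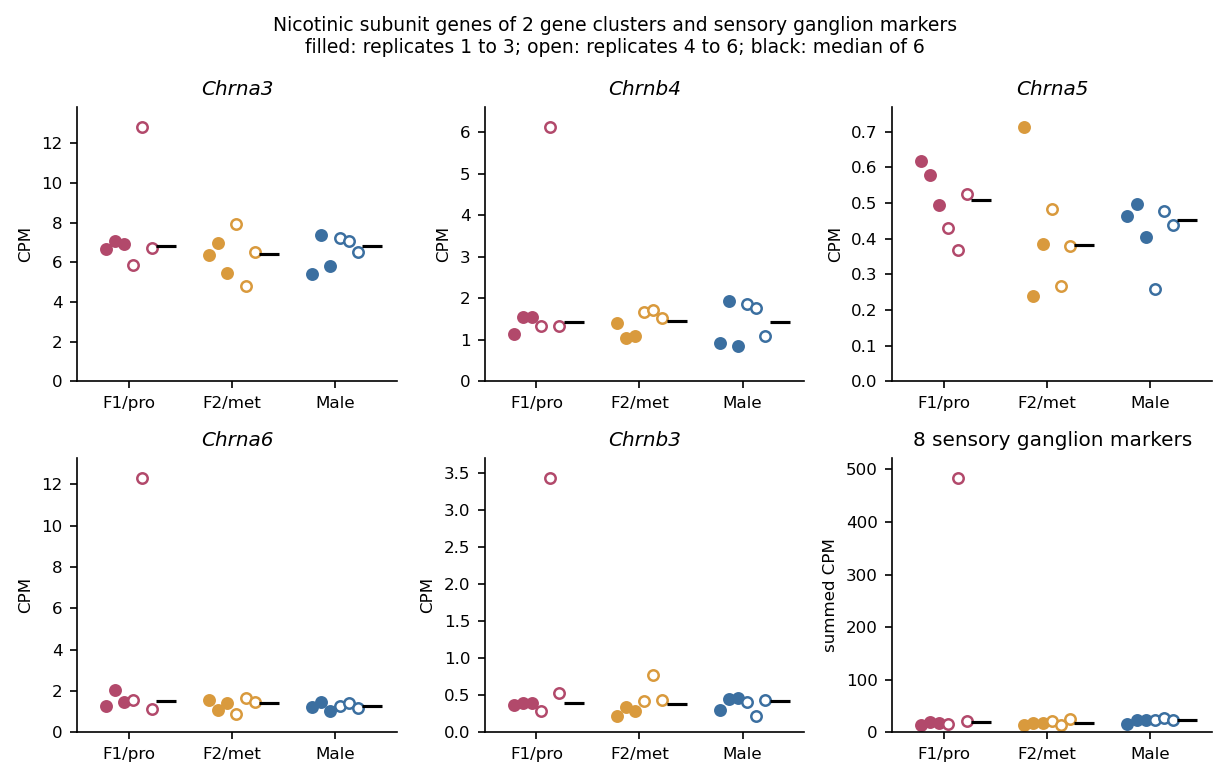
Expression in CPM of the chromosome 9 cluster genes *Chrna3*, *Chrnb4* and *Chrna5*, of the chromosome 8 neighbors *Chrna6* and *Chrnb3*, and of 8 sensory ganglion markers in sum, by group, with replicates 1 to 3 filled, replicates 4 to 6 open and black bars at the median of 6. F1/proestrus replicate 5 is the single high point in 5 panels, with 483 CPM of markers, and is low for *Chrna5* at 0.368 CPM.

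*Chrna5* was the lowest of the 9 genes, with 19 to 80 counts per sample. Its lowest, median and highest values were 0.368, 0.509 and 0.619 CPM in F1/proestrus. They were 0.240, 0.382 and 0.712 CPM in F2/metestrus, which holds both the lowest and the highest sample of all. They were 0.258, 0.451 and 0.498 CPM in males. The log2 fold change was -0.28 (SE 0.253, 95% interval -0.82 to 0.26) between the female groups and -0.10 (SE 0.207, 95% interval -0.54 to 0.33) between the sexes. The coefficient of variation was 41.8% in F2/metestrus, and a change within these intervals is not excluded by these samples.

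Some markers of other cells differed with sex or with the library series in these samples. Schwann cell markers summed to 1821 to 4478 CPM in males and 1225 to 2567 CPM in females, with 4 of 4 positive in males against females and *Ncmap* past the threshold. Over all genes, 0.149% passed as higher in males. Without F1/proestrus replicate 5, the female with the highest sum, 4 of the 4 Schwann cell markers passed. In that fit 77 of 24739 genes passed in either direction. Neutrophil markers summed to 15.2 to 27.4 CPM in males and 3.78 to 10.2 CPM in females. Of 5 tested, 5 were positive, and *Mpo* and *Lcn2* passed, against the same 0.149% of all genes. Motor and other cholinergic neuron markers summed to 33.1 to 183 CPM in males and 44.8 to 337 CPM in females. Of these 7 markers, 7 were negative in males against females and 0 passed. The 337 CPM are those of F1/proestrus replicate 5, and the next highest female had 209 CPM. In replicate 5 *Prph* had 203 CPM and *Isl1* 12.0 CPM, both the highest of all samples. The other markers of the list were not highest there, with *Chat* at 21.0 and *Slc18a3* at 49.6 CPM. Without this library 7 of 7 were negative and 0 passed. Between the series, 5 of 12 dorsal horn neuron markers were higher in replicates 4 to 6, against 14.2% of all genes (*Tlx3*, *Lbx1*, *Prrxl1*, *Tac1* and *Sst*). Of the other 7, none passed, and over the list 9 values were positive and 3 negative. Other lists also had calls there, against 26.9% of all genes: 3 of 5 microglia, 2 of 4 endothelium, 1 of 6 astrocyte, 1 of 4 Schwann cell and 1 of 7 ganglion markers. Without F1/proestrus replicate 5 they had 3, 1, 2, 0 and 0. For males against females, 10 of 12 dorsal horn neuron markers were positive and 0 passed. Of the 12, 5 had an unadjusted p under 0.05 in edgeR, against 9.72% of all genes. The part of these cells in the receptor values was not tested.

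Across the 18 samples, 1 of 36 pairs of receptor genes passed a permutation test of the correlation of log2 CPM. *Chrna4* and *Chrnb2* correlated with a Pearson's r of 0.729 (permutation p 0.00063, adjusted over the 36 pairs 0.0227) and a Spearman's rho of 0.734 (permutation p 0.00089, adjusted 0.0320). Without the 2 samples farthest from the median of *Chrna4*, r was 0.653. Both genes were lower in replicates 4 to 6, and within replicates 1 to 3 r was 0.256 and within replicates 4 to 6 it was 0.534, where no pair passed. After the mean of each group and series was subtracted, r was 0.647, and no pair passed either. The relation of the pooled samples thus did not pass within either series.

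Pairs with *Chrna7* came next but did not pass. *Chrm2* and *Chrna7* had an r of 0.604 (permutation p 0.00826, adjusted 0.141; rho 0.523, adjusted 0.251), which was 0.370 without the 2 farthest samples. *Chrna7* and *Chrnb2* had an r of 0.580 (permutation p 0.0118, adjusted 0.141; rho 0.527, adjusted 0.251), and it was -0.03 after the means of group and series were subtracted. Without F1/proestrus replicate 5, 2 pairs passed. The 2 highest r there were those of *Chrna4* with *Chrnb2* (0.750) and *Chrna4* with *Chrna7* (0.736). *Chrna4* and *Chrna7* had an r of 0.524 over all 18 samples (permutation p 0.0264, adjusted 0.208). It was 0.016 within replicates 4 to 6 and 0.124 after the means of group and series were subtracted.

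**Figure D5:**
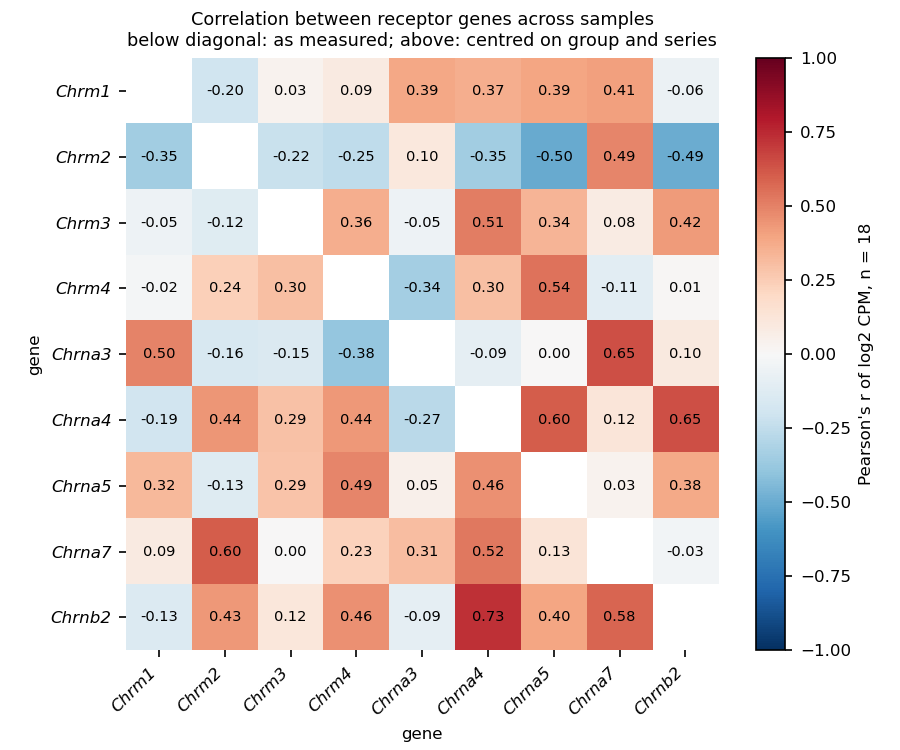
Pearson's r of log2 CPM between the 9 receptor genes over 18 samples, as measured below the diagonal and after subtracting the mean of each group and series above it, on a color scale from -1 to 1. *Chrna4* with *Chrnb2* has the highest r below the diagonal (0.729), and *Chrna7* with *Chrnb2* goes from 0.580 to -0.03 above it.

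For each receptor gene the 2 most similar of 17756 genes were sought by Pearson's r of log2 CPM over the 18 samples, after subtracting the mean of each group and series. *Chrm2* was most like *Skiv2l2* (r = 0.942), which encodes an RNA helicase of the exosome, and *Kcnab1* (0.933), which encodes a potassium channel beta subunit. *Chrna4* was most like *Fam131b* (0.906) and *Eml2* (0.860), and *Chrnb2* like *Zmynd11* (0.903) and *Dnhd1* (0.885). *Chrna7* was most like *Ptprz1* (0.909), a receptor phosphatase of glial precursors and astrocytes, and *Pcdhac2* (0.863). *Chrm3* was most like *Tgfbrap1* (0.927) and *Prickle2* (0.847), and *Chrna3* like *Capn5* (0.918) and *Jhy* (0.880), both of which were lower without F1/proestrus replicate 5 (0.854 and 0.790). For the scarce genes the nearest were *Rsg1* (0.901) and *Gm6439* (0.865) for *Chrm4*, *Gm16163* (0.832) and *Dcaf8* (0.819) for *Chrm1*, and *Gm10051* (0.922) and *Taco1os* (0.848) for *Chrna5*. The samples share libraries and depth, the genes were picked as the highest of many, and these values carry no test.

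Of the other receptor genes, 8 of 12 passed the filter on low counts. Of these, 0 of 8 passed in any of the 3 comparisons, with 2 positive between the sexes, 3 between the female groups and 4 between the series. *Chrm5*, the gene for M5, which also couples to Gq, had 3.45 ± 0.539 CPM (2.16 ± 0.337 CPM per kb, SD, n = 18) and a log2 fold change of 0.21 in males against females (SE 0.101, adjusted p 0.515 in edgeR). The muscle-type genes *Chrnd* and *Chrng* and the hair cell gene *Chrna9* had counts in 4, 5 and 8 of the 18 samples, with at most 3, 10 and 8 counts.

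Genes for the supply of acetylcholine gave the following. *Chat*, which makes acetylcholine, had 4.14 to 23.4 CPM in males and 6.99 to 28.4 CPM in females, with a log2 fold change of -0.38 (SE 0.291). Of the 8 genes of synthesis, transport and breakdown, 0 passed between the sexes and 0 between the female groups. The smallest unadjusted p between the sexes was that of *Colq*, which anchors acetylcholinesterase, with a log2 fold change of -0.47 (SE 0.156, adjusted p 0.323 in edgeR). Between the series 2 of 8 passed, against 26.9% of all genes: *Ache*, the esterase itself, was higher in replicates 4 to 6 by 0.16 (SE 0.0572, adjusted p 0.0487), and *Bche*, butyrylcholinesterase, fell by 0.23 on the log2 scale (SE 0.0633, adjusted p 0.00932). Without F1/proestrus replicate 5, only 1 of the 8 passed, where 6878 of 25468 genes passed.

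Among 9 genes of nicotinic receptor assembly and modulation, *Rapsn* passed between the sexes. *Rapsn* encodes rapsyn, which clusters the receptors of the muscle endplate. It had 3.52 to 6.28 CPM in males and 2.03 to 3.66 CPM in females, and its log2 fold change was 0.65 (SE 0.132, adjusted p 0.0419 in edgeR). The ranges met only at F1/proestrus replicate 5 (3.66 CPM) and male replicates 2 and 4 (3.52 and 3.61 CPM). The highest value was in male replicate 5, which also had the most Schwann cell markers (4478 CPM), and the part of those cells was not tested. *Rapsn* did not pass without the filter on low counts, with at least 10 counts in every sample, within either series, with the 3 groups in 1 fit, or against either female group alone.

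Between the series 3 of these 9 genes passed, against the same 26.9%: *Lynx1*, an inhibitor of alpha4beta2 and alpha7 receptors, fell by 0.17 on the log2 scale (SE 0.0382, adjusted p 0.00196), *Ly6h* was higher by 0.39 (SE 0.0639, adjusted p 0.000164) and *Ly6e* by 0.28 (SE 0.0340, adjusted p 6.84e-06). Among 16 genes of signalling after muscarinic receptors, 0 passed between the sexes, 0 between the female groups and 8 between the series, where 26.9% of all genes passed. Of the 8, 2 were higher (*Gna11*, *Gnai2*; 14.2% of all genes) and 6 lower in replicates 4 to 6 (12.7% of all genes), among them *Gnaq*, *Plcb1*, *Plcb4* and *Kcnj3*.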

How the data were processed

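RNA of 18 DHSC samples was sequenced. The authors deposited raw counts per Ensembl gene. According to their methods, reads were mapped uniquely by Subread to the mm10 build, and featureCounts assigned them to exons. Strand setting and the handling of reads over several genes are not given in the sources used here. For the libraries, the methods give TruSeq and the labels SMART-Seq with Nextera XT, which does not mark strand. Symbols were read from the deposited table of a DESeq2 comparison, whose fold changes and p-values were not used.

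Genes were filtered with filterByExpr (minimum count 10, minimum total 15), scaled by TMM and fitted with the quasi-likelihood test of edgeR 4.0.16 in R 4.3.3. P-values were adjusted by Benjamini-Hochberg over all genes tested, at an FDR of 5%. The standard error is the log2 fold change over the square root of F. Males were compared with 12 females, F2/metestrus with F1/proestrus within the females, and replicates 4 to 6 with replicates 1 to 3 with the group as a covariate. DESeq2 1.42.0 was an alternative. Log2 CPM for correlations used a prior count of 2, with 100000 permutations, two-sided. Levels between genes are CPM per kb of the union of exons in GENCODE vM21, which held 55394 of the 55573 gene IDs. The fits were tested on simulated data.

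The receptor genes, the other gene lists, the library series and the tests were chosen with earlier results of these data known. Named beside the receptor genes are list genes past the threshold, the genes of a list with the smallest p, and for each receptor gene the 2 most similar genes with a mean of at least 1 CPM. *Chat*, *Chrm5*, *Chrnd*, *Chrng*, *Chrna9* and the genes high in F1/proestrus replicate 5 were added after their values were seen. The labels number the samples but do not say that each is a separate animal. The methods call them biological replicates. If samples shared an animal, p-values would measure the spread between samples only. A gene of the list of signalling after muscarinic receptors is counted but not reported here.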

Additional observations from a re-analysis of the deposited data

Results flagged for a closer look

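In groups of 6 samples a value was marked where its gap to the nearest other sample took more of the group's range than Dixon's 95% critical value allows. The 17 tested receptor genes gave 51 groups, of which 5 were marked, where chance marks about 1 in 20. All 5 were the highest value of F1/proestrus, and 4 came from replicate 5. In that library *Chrna3* had 12.8 CPM (the other 5 samples 5.87 to 7.10), *Chrna6* 12.3 CPM (1.14 to 2.07), *Chrnb3* 3.42 CPM (0.286 to 0.536) and *Chrnb4* 6.11 CPM (1.15 to 1.55). The summed sensory ganglion markers were 483 CPM there, and their part in these values was not tested. *Chrna2* had 0.761 CPM in F1/proestrus replicate 3, with 0.0991 to 0.339 CPM in the other 5. That sample had 74 counts of *Chrna2*, a gene with a median of 26 counts over the 18 samples.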

How the results depend on the processing

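None of the receptor genes passed between the sexes or between the female groups under any alternative, and no value of theirs that had passed changed sign. The number of genes past the threshold between the sexes was 49, and it was 31 with at least 10 counts in every sample, 133 with the series as a covariate, 166 with DESeq2, 16 and 13 in replicates 1 to 3 and 4 to 6 alone, and 13 and 22 against F1/proestrus and F2/metestrus females alone. It ran from 25 (without male replicate 5) to 77 (without F1/proestrus replicate 5) with single samples left out, and was 30 without male replicate 4. With the replicate block it was 112, with 0 receptor genes past it. The numbers do not pair the samples: samples with the same number had deviations correlated from -0.105 to 0.228, over 0.1 in 9 of 18 pairs, with a median of 0.0823 against 0.0985 for other numbers of the same series. Between the female groups the count was 0, and 2 with DESeq2. Between the library series it was 6774, and 3908 in the females and 1198 in the males alone, where 1 receptor gene each passed in place of 3 (*Chrna4* in females, *Chrnb2* in males). Fewer samples enter these fits. For the other alternatives named here the cause was not tested. Leaving out single samples gave 3 to 4 receptor genes, the fourth being *Chrna7*, which also passed with no group in the model (adjusted p 0.0454 in edgeR). With the longest transcript as length, 4 of 9 genes kept their place in the order. The number of correlated pairs was 1, and it was 0 in replicates 1 to 3, 0 in replicates 4 to 6, 0 after subtracting group and series means, and 2 without F1/proestrus replicate 5. Of the log2 fold changes of receptor genes under an alternative, 695 stayed on the same side of the threshold, 4 no longer passed and 3 newly passed. Direction was compared only where a value passed, and values that did not pass could change sign. For *Chrm1* between the sexes the alternatives other than single samples left out ran from -0.32 to 0.11. *Chrna5*, *Chrm4* and *Chrm1*, with medians of 44, 87 and 147 counts, had the lowest counts of the 9 genes.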
